A study of Homo sapiens with 30 samples.

Results

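ESRP1, ESRP2, RBFOX2, QKI, MBNL1, MBNL2, MBNL3, PTBP1, PTBP2 and PTBP3 are 10 genes for RNA-binding proteins whose levels set which exons are used in epithelial, mesenchymal, muscle or nerve cells. They were chosen by symbol as members of these regulator families and were found once each among 60612 genes of the knockout table (by Ensembl identifier) and among 56303 genes of each of the overexpression and knockdown tables. RNA-seq was run on 5637 cells, a human bladder carcinoma cell line of epithelial origin, in 30 libraries that fell into 10 groups of 3. The experiments ask how the transcriptome responds to loss of RBPMS, itself a splicing regulator, and to more or less of either of 2 transcript variants of ANKRD10, an ankyrin repeat gene.

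In the knockout table, KO1 and KO2 are RBPMS knockout cells made with different sgRNAs, and WT1 and WT2 are the control groups of the same number (WT1 here names a control group, not the gene). In the overexpression table, cells received empty vector (Vector), ANKRD10-1, the longer variant, or ANKRD10-2, the shorter one. In the knockdown table, cells received a control siRNA (siNC) or an siRNA named for one variant (siANKRD10-1, siANKRD10-2), of which the sources used here do not say which design was used. As limits of these models, the authors describe growth of the knockout lines from single clones. They place ANKRD10-1 overexpression and siANKRD10-2 in RBPMS knockout cells, whereas the labels give 5637 cells alone and 1 control group per table. The labels therefore do not settle the RBPMS background of these groups, whose RBPMS changes are given below. Nothing in the labels says that the 3 libraries of a group came from separate cultures, so p-values measure the spread between libraries, which may be technical.

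Total counts per library were 44593108 to 69723937 (median 55581013) in the knockout table, 31736779 to 47493499 (median 41852653) in the overexpression table and 28511029 to 32784584 (median 32141257) in the knockdown table. RBPMS was at 15.1, 15.2 and 14.3 CPM (read counts relative to the library total, scaled by TMM factors within a table) in KO1 against 39.0, 42.2 and 40.1 CPM in WT1, and at 20.7, 18.9 and 21.3 CPM in KO2 against 44.2, 42.8 and 42.4 CPM in WT2. Its counts fell in both knockout groups but did not reach 0. In the other tables RBPMS was not called against its own control by edgeR. The log2 fold changes were −0.19 ± 0.135 SE in ANKRD10-1, 0.08 ± 0.129 in ANKRD10-2, −0.11 ± 0.139 in siANKRD10-1 and 0.03 ± 0.137 in siANKRD10-2 cells. These values set a group against its own control, so a background shared by both was not tested. All counts for ANKRD10, both variants pooled, averaged 237 and 197 CPM in ANKRD10-1 and ANKRD10-2 cells against 149 CPM in Vector, and 47.7 and 47.4 CPM in siANKRD10-1 and siANKRD10-2 cells against 56.4 CPM in siNC. ANKRD10 also fell in the RBPMS knockouts, from 195 to 86.3 CPM in KO1 (log2 fold change −1.18 ± 0.052 SE) and from 190.4 to 112.6 CPM in KO2 (−0.76 ± 0.040), and the effects differed by −0.42 ± 0.064 (adjusted p = 0.00016 by edgeR). All 10 genes of an epithelial marker list (EPCAM, CDH1 and keratins among them) were above 1 CPM in every table. Of 8 urothelial markers, UPK1B, UPK3A and KRT20 stayed under 1 CPM in every library. The rest of that list averaged 241 (TP63), 66.6 (FOXA1), 65.1 (PPARG), 55.9 (GATA3) and 0.287 CPM (UPK2) in WT1.

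Splicing regulators of this kind bind short motifs in pre-mRNA and promote or block the use of a nearby exon according to where they bind. ESRP1 and ESRP2 keep epithelial exon choices, for instance in FGFR2, CD44 and CTNND1, and are lost in many mesenchymal cells, where QKI and RBFOX2 favour the opposite choices. MBNL proteins drive the fetal-to-adult switch of exons in muscle and brain, and PTBP1 represses neuronal and muscle exons, among them an exon of PTBP2 whose skipping sends the transcript to decay.

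Many of these genes control exons of their own transcripts or of a paralog, and these exons are conserved within a family. The short exon of the PTBP genes whose use decides whether the reading frame is kept is shown first, because counts per gene pool transcripts with and without it and PTBP1 and PTBP3 changed in these data. The sequences were read from GENCODE v29 transcripts on GRCh38 and are written 5′ to 3′ on the strand of the gene, with capitals at positions where all genes printed have the same base. The exon had 34 bases in each gene, at chr19:807869-807902 (+) in PTBP1, chr1:96806419-96806452 (+) in PTBP2 and chr9:112231380-112231413 (−) in PTBP3, and was coding sequence in 6 of 12, 4 of 4 and 5 of 7 annotated protein-coding transcripts.
PTBP1: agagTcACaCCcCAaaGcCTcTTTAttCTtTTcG
PTBP2: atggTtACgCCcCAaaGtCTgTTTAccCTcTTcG
PTBP3: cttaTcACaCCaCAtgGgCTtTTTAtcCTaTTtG
The 3 exons were identical at 19 positions (55.9%), and PTBP1 shared 25 positions (73.5%) with PTBP2 and 22 (64.7%) with PTBP3.

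The second pair is the exon of 54 bases in MBNL1 and MBNL2 that affects where in the cell the protein goes, shown because both genes changed in several comparisons. It lies at chr3:152446704-152446757 (+) in MBNL1 and chr13:97356796-97356849 (+) in MBNL2, and was coding sequence in 5 of 19 and 1 of 5 annotated protein-coding transcripts.
MBNL1: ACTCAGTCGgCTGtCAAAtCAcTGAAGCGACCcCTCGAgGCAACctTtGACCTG
MBNL2: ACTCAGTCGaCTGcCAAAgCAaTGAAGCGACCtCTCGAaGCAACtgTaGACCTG
Both sequences had the same base at 45 positions (83.3%). Counts per gene cannot show whether use of any of these exons changed.

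Levels between genes were compared as CPM per kb of gene length, the length being the summed exons given in the overexpression table. The knockout table gives no lengths and lists another set of genes, so its counts may cover other exons. Summed exons also exceed any single transcript where exons are alternative. The order of genes with near levels is limited by both points. In the control cells of the knockout table, PTBP1 had the highest level, 90.7 ± 4.05 CPM per kb in WT1 (SD, n = 3), followed by ESRP1 with 47.8 ± 0.708 and PTBP3 with 46.8 ± 1.87. ESRP1 and PTBP3 overlapped in WT1, whereas in WT2 every library had more ESRP1 (49.1 ± 0.901 CPM per kb) than PTBP3 (43.2 ± 0.791). MBNL2 (19.8), RBFOX2 (18.1), MBNL1 (15.8) and QKI (11.9) followed in WT1 in that order without overlap between neighbours, although MBNL2 and RBFOX2 overlapped in WT2. PTBP2, the neuronal paralog of PTBP1, stood at 3.19 CPM per kb, ESRP2 at 2.44 and MBNL3 at 0.258.

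The order differed between tables. In Vector cells ESRP1 led with 35.6 CPM per kb, ahead of RBFOX2 (17.7) and MBNL2 (11.6), while PTBP1 (8.72), PTBP3 (8.53) and QKI (8.21) overlapped with their neighbours. In siNC cells ESRP1 (22.8 CPM per kb) came before PTBP1 (14.7), RBFOX2 (10.6) and QKI (7.45), and MBNL1, MBNL2 and PTBP3 lay between 4.70 and 5.42 with overlap between neighbours. ESRP2, PTBP2 and MBNL3 took the last 3 places in all 10 groups. The tables were counted and scaled separately, so a value such as PTBP1 at 624 CPM in WT1 against 60.0 CPM in Vector and 100.98 CPM in siNC cannot be read as a difference between the cells.

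**Figure D1:**
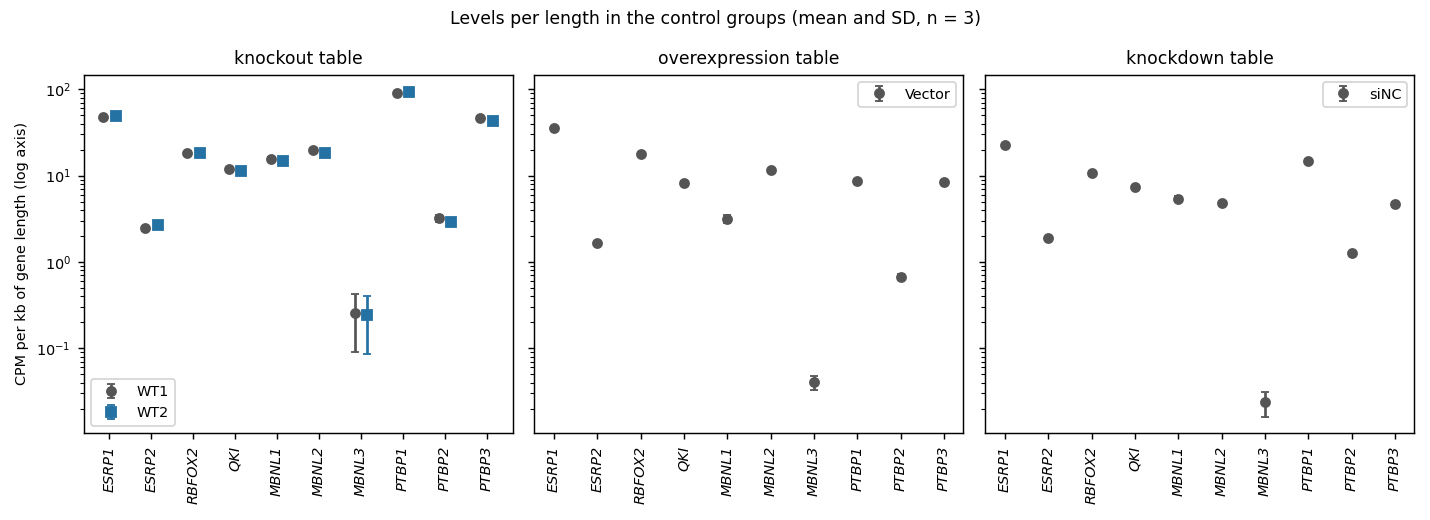
Mean level per kb of gene length (CPM per kb, log axis) of the 10 regulators in the 4 control groups, 1 panel per table, with bars for the SD of 3 libraries. PTBP1 leads in WT1 and WT2, ESRP1 leads in Vector and siNC, and MBNL3 is lowest in each group.

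Of 58 tests of a regulator against its own control group, 18 had an adjusted p under 0.05 (quasi-likelihood test of edgeR, with p-values adjusted by Benjamini-Hochberg across every gene in the fit), and their log2 fold changes stayed within ±0.52. No called change reached 1 on the log2 scale. RBFOX2 and MBNL1 were called in 4 of the 6 comparisons, MBNL2 in 3, ESRP1 and PTBP1 in 2, and ESRP2, QKI and PTBP3 in 1. MBNL3 and PTBP2 were called in none. Over all genes tested, the share called in these 6 comparisons ran from 6.31% (ANKRD10-1) to 38.5% (KO2). The counts of this paragraph are therefore not read as a property of the regulators.

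**Figure D2:**
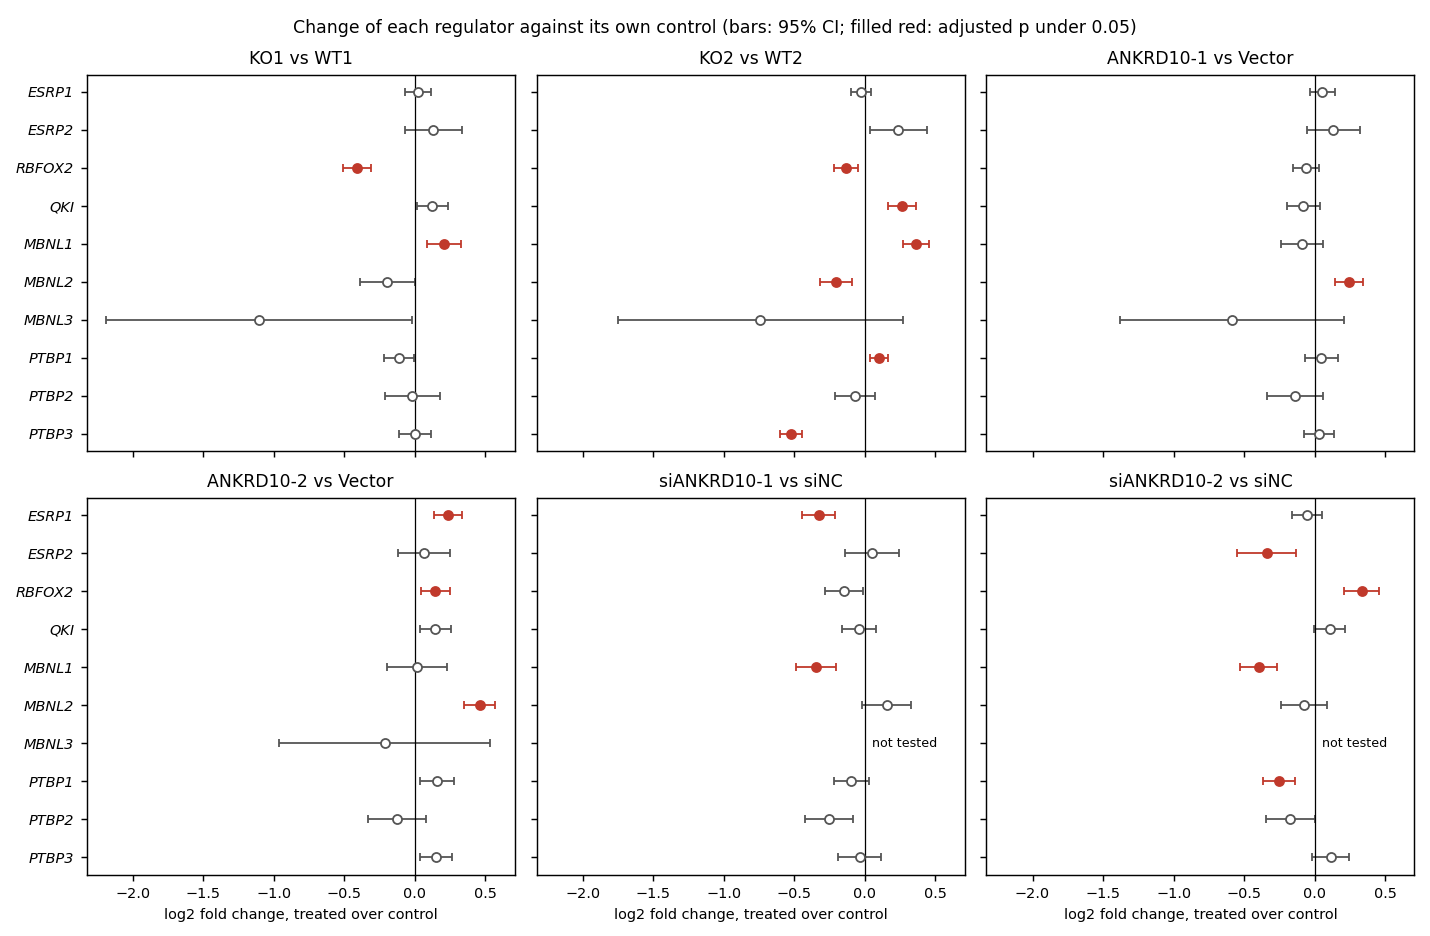
Log2 fold change of each regulator in the 6 comparisons of a treated group with its control, with 95% confidence intervals and filled red points where the adjusted p is under 0.05. RBFOX2 and PTBP3 fell most among the called changes of the knockouts (−0.41 in KO1 and −0.52 in KO2), and MBNL2 rose most (0.46 in ANKRD10-2 cells).

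In KO1, 2 of 10 regulators were called (1 higher, 1 lower), a share of 20% where 36.1% of all 17865 genes tested were called. In KO2, 6 of 10 were called (3 higher, 3 lower) beside 38.5% of all genes. The difference between the effects of both knockouts was called for 3 of 10 regulators, beside 23.3% of all genes, and the direct comparison of WT2 with WT1 called 0 of 10 (3 of them at an unadjusted p under 0.05, and 0 by DESeq2), beside 1.23% of all genes. In ANKRD10-1 cells 1 of 10 was called (6.31% of all genes), in ANKRD10-2 cells 3 of 10 (19.9%), and between both variants 4 of 10 (7.26%). In the knockdown table, where MBNL3 had too few counts to be tested, 2 of 9 were called with siANKRD10-1 (10.6% of all genes), 4 of 9 with siANKRD10-2 (36.3%) and 5 of 9 between both siRNAs (37.0%). With so few genes each share rests on a handful of calls, and no share is read as a property of the regulators. The median log2 fold change over the regulators was −0.01 in KO1, −0.05 in KO2, −0.02 in ANKRD10-1, 0.15 in ANKRD10-2, −0.10 in siANKRD10-1 and −0.08 in siANKRD10-2 cells, where that over all genes was within ±0.02.

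The epithelial regulators come first. ESRP1 was level across the knockout table. It read 234, 238 and 237 CPM in KO1 against 235, 229 and 234 CPM in WT1, and 232, 239 and 237 CPM in KO2 against 240, 235 and 243 CPM in WT2. The groups overlapped in both pairs. Log2 fold changes were 0.02 (95% CI −0.07 to 0.11) in KO1 and −0.03 (95% CI −0.10 to 0.05) in KO2, with both intervals on either side of 0. In the same libraries the mesenchymal filament gene VIM rose from a mean of 4.48 to 70.7 CPM in KO1 (log2 fold change 3.98 ± 0.094 SE, adjusted p = 2.81e-09 by edgeR) and from 4.52 to 45.9 CPM in KO2 (3.35 ± 0.097, adjusted p = 1.86e-10). Of the 7 genes of the mesenchymal marker list, 6 were tested in each pair, of which 2 rose and 4 fell in KO1 (beside 36.1% of all genes called) and 3 rose and 1 fell in KO2 (38.5%). SPARC, a matrix glycoprotein gene, fell in both (−4.03 ± 0.606 and −2.82 ± 0.353), and FN1 and CDH2 fell in KO1 (−0.53 ± 0.045 and −0.94 ± 0.059) and rose in KO2 (1.58 ± 0.037 and 1.46 ± 0.041). The summed CPM of the list, most of it FN1, was lower in KO1 (1413 to 1492) than in WT1 (1909 to 2067) and higher in KO2 (4697 to 4791) than in WT2 (1532 to 1709).

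ESRP1 did change with ANKRD10. It rose in ANKRD10-2 cells to 197, 207 and 206 CPM from 177, 168 and 175 CPM in Vector, without overlap (log2 fold change 0.23 ± 0.046 SE, adjusted p = 0.00318). In ANKRD10-1 cells it read 181, 183 and 177 CPM (0.06 ± 0.043, adjusted p = 0.51). The direct comparison put ANKRD10-2 above ANKRD10-1 by 0.18 ± 0.049 (adjusted p = 0.0348), a call that was lost when any 1 of 5 of these 6 libraries was left out, with adjusted p-values from 0.0921 to 0.119, and with no filter on low counts (0.0554). In the knockdown table ESRP1 fell with siANKRD10-1, to 91.8, 88.7 and 85.5 CPM from 111, 109 and 114 CPM in siNC, again without overlap (−0.33 ± 0.056, adjusted p = 0.000928). With siANKRD10-2 it read 108.5, 105.4 and 107.1 CPM, which lay just below the lowest siNC library (108.8 CPM) (−0.06 ± 0.052, adjusted p = 0.449), and the siRNAs differed by 0.28 ± 0.054 (adjusted p = 0.000277).

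The epithelial marker genes moved in these libraries too. Of its 10 genes, 6 were called in ANKRD10-2 cells (60%, beside 19.9% of all genes) and 4 in ANKRD10-1 cells (40%, beside 6.31%), all higher, while 4 were called with siANKRD10-1 (40%, beside 10.6%) and 8 with siANKRD10-2 (80%, beside 36.3%), all lower. Their summed CPM went from 2847 to 3037 in Vector to 3243 to 3685 in ANKRD10-2, and from 5390 to 5716 in siNC to 4500 to 4845 with siANKRD10-1 and 3327 to 3454 with siANKRD10-2. With siANKRD10-2, where 8 of the 10 fell, ESRP1 was not called (−0.06). In the knockout table, where ESRP1 was level, marker genes were called as well. These were 6 of 10 in KO1 (5 higher, 1 lower), beside 36.1% of all genes. In KO2 they were 6 of 10 (4 higher, 2 lower), beside 38.5%. Whether the changes of ESRP1 and of these markers have a common source was not tested. In cultured cells measured in bulk, fewer cells of a kind and less RNA per cell cannot be told apart.

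ESRP2, the paralog with overlapping targets, was far lower and called once. With siANKRD10-2 it read 7.66, 9.03 and 8.50 CPM against 10.95, 10.45 and 10.47 CPM in siNC, so the groups did not overlap (−0.34 ± 0.101 SE, adjusted p = 0.01), and without siANKRD10-2 replicate 1 the adjusted p was 0.0598. The siRNAs differed from each other by −0.38 ± 0.102 (adjusted p = 0.00473), with siANKRD10-1 at 11.6, 10.5 and 10.9 CPM. In KO2 all 3 libraries (18.3, 18.4 and 15.7 CPM) lay above those of WT2 (15.62, 13.57 and 14.997 CPM), but the test did not pass (0.24 ± 0.092, adjusted p = 0.0595). It did pass by DESeq2 (adjusted p = 0.0489), with all libraries of the table in 1 fit (0.0451), against all 6 control libraries (0.01) and without KO2 replicate 3 (0.0219). ESRP2 shares 149 exon bases with NFATC3 on the opposite strand and 35 bases with a gene on its own strand, and the strand setting of the counting is not given in the sources used here.

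RBFOX2, which binds GCAUG motifs and takes part in the splicing change of epithelial cells that turn mesenchymal, fell in both knockouts. It read 139, 135 and 134 CPM in KO1 against 179, 185 and 179 CPM in WT1 (−0.41 ± 0.044 SE, adjusted p = 4.2e-05). In KO2 it read 165, 162 and 170 CPM against 188, 175 and 180 CPM in WT2 (−0.13 ± 0.039, adjusted p = 0.0161). The groups did not overlap in either pair, RBFOX2 fell by 24.8% in KO1, and the call in KO2 was lost without WT2 replicate 1 or without KO2 replicate 1 or 2 (adjusted p between 0.0541 and 0.0736).

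In the ANKRD10 experiments RBFOX2 rose with overexpression of ANKRD10-2 and with siANKRD10-2. It read 186, 204 and 200 CPM in ANKRD10-2 cells against 175, 177 and 181 CPM in Vector (0.15 ± 0.049, adjusted p = 0.0491), a call at the threshold that was lost without any 1 of the 3 Vector libraries or ANKRD10-2 replicate 2 or 3, with adjusted p-values from 0.075 to 0.157. ANKRD10-1 cells read 175, 168 and 168 CPM (−0.06 ± 0.043, adjusted p = 0.477). ANKRD10-2 lay above ANKRD10-1 by 0.20 (adjusted p = 0.0206), a call lost without any 1 of 5 of these 6 libraries (adjusted p from 0.0544 to 0.0982). With siANKRD10-2 it read 133, 125 and 144 CPM against 109.8, 110.2 and 98.98 CPM in siNC (0.33 ± 0.060, adjusted p = 8.14e-05), while siANKRD10-1 libraries read 91.48, 104.02 and 92.19 CPM (−0.15 ± 0.065, adjusted p = 0.156), with a call only when siANKRD10-1 replicate 2 was left out (−0.22, adjusted p = 0.03). RBFOX2 thus separated both siRNAs (0.49 ± 0.063, adjusted p = 2.08e-06), and every siANKRD10-2 library lay above every siANKRD10-1 library.

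QKI, a STAR-family regulator that is high in mesenchymal and glial cells, rose in KO2 to 241, 223 and 255 CPM from 202, 197 and 197 CPM in WT2 (0.26 ± 0.044 SE, adjusted p = 0.000489). In KO1 the libraries (222, 236 and 216 CPM) lay just above those of WT1 (205, 200 and 214 CPM), and the test did not pass (0.12 ± 0.051, adjusted p = 0.0818) except against all 6 control libraries (0.15, adjusted p = 0.00914). Both effects did not differ beyond their error (−0.14, 95% CI −0.29 to 0.00, adjusted p = 0.162). By edgeR QKI was not called in any overexpression or knockdown group against its control, where its log2 fold changes were −0.08, 0.15, −0.04 and 0.11. In ANKRD10-2 cells it was called by DESeq2 (adjusted p = 0.047), with a replicate block (0.027), without Vector replicate 2 (0.0469) and without ANKRD10-2 replicate 1 (0.0326). It was higher with ANKRD10-2 than with ANKRD10-1 (0.23 ± 0.058, adjusted p = 0.0222) and with siANKRD10-2 than with siANKRD10-1 (0.16 ± 0.056, adjusted p = 0.0313), and each call was lost without some single libraries. For the variants these were ANKRD10-1 replicate 3 and ANKRD10-2 replicates 2 and 3, with adjusted p-values from 0.0549 to 0.118. For the siRNAs they were siANKRD10-1 replicates 1 and 3 and siANKRD10-2 replicates 2 and 3, with adjusted p-values from 0.05 to 0.168, and the call was also lost with a replicate block (0.0637).

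**Figure D3:**
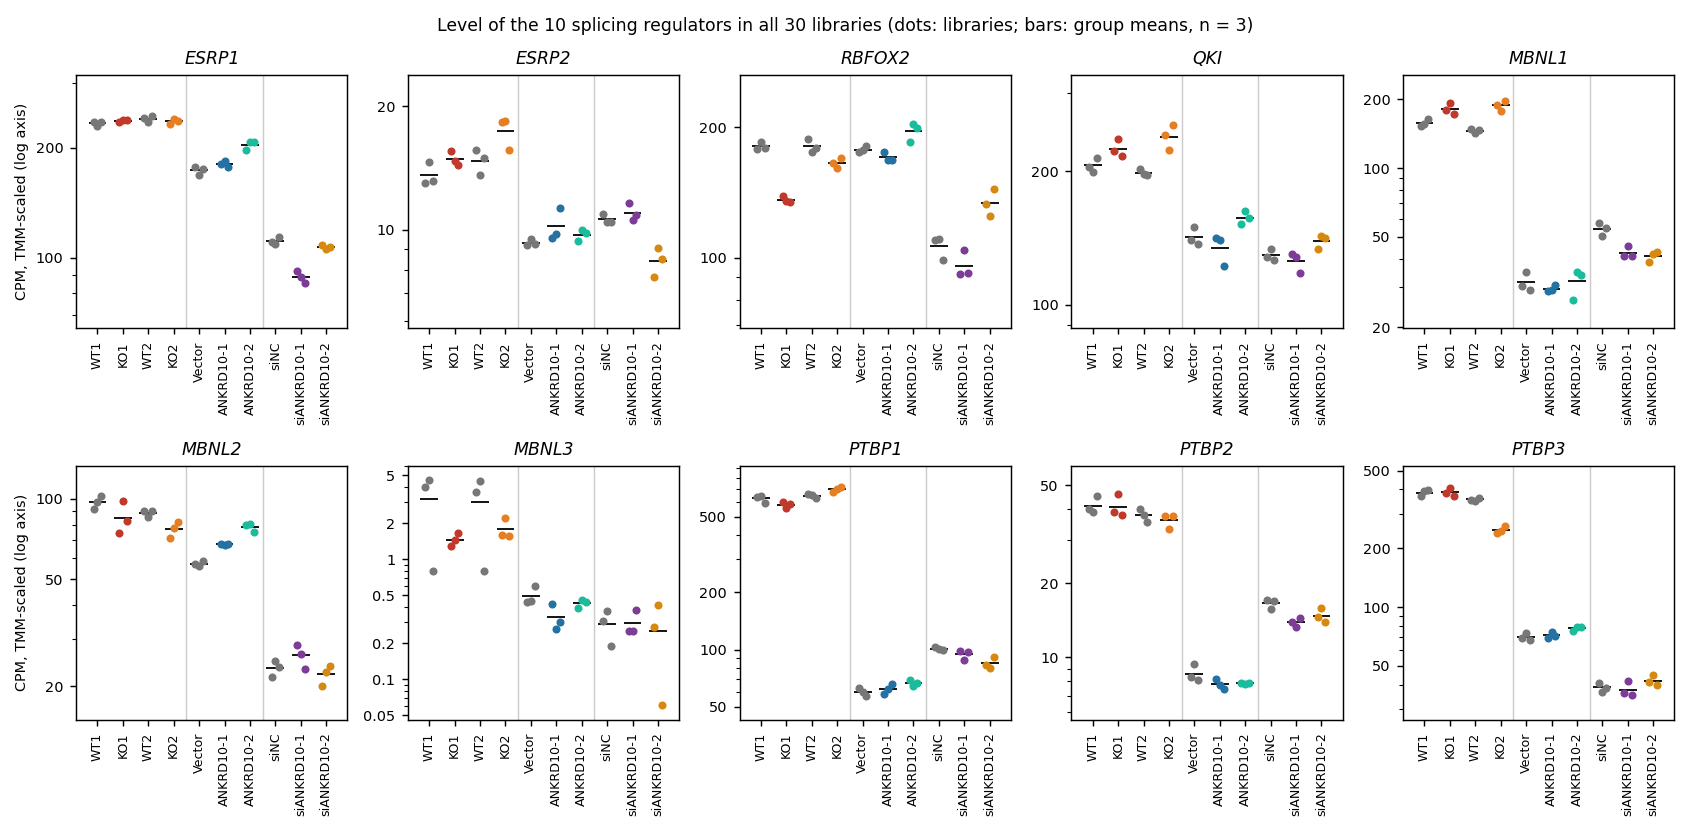
Level of each regulator (CPM, TMM-scaled within a table, log axis) in all 30 libraries, with bars at the group means and grey lines between the 3 tables. RBFOX2 and PTBP3 drop in KO1 and KO2 respectively, MBNL2 steps up from Vector to ANKRD10-1 to ANKRD10-2, and MBNL1 is lower with both siRNAs.

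Among the MBNL genes, MBNL1, the most widely expressed one in adult tissues, rose in both knockouts. It read 179, 193 and 173 CPM in KO1 against 152, 156 and 165 CPM in WT1 (0.20 ± 0.055 SE, adjusted p = 0.0136), and without WT1 replicate 1 or 2 the adjusted p was 0.0591 or 0.0618. It read 190, 178 and 198 CPM in KO2 against 149, 142 and 147 CPM in WT2 (0.37 ± 0.042, adjusted p = 2.65e-05). MBNL1 fell with both siRNAs, from 57.5, 50.2 and 54.7 CPM in siNC to 41.0, 45.6 and 41.0 CPM with siANKRD10-1 (−0.35 ± 0.068, adjusted p = 0.0027) and to 38.5, 41.9 and 42.8 CPM with siANKRD10-2 (−0.40 ± 0.064, adjusted p = 1.95e-05). No siRNA library overlapped with siNC, and the siRNAs, which share the siNC libraries, differed by −0.05 (95% CI −0.18 to 0.09). In the overexpression table its log2 fold changes were −0.09 ± 0.070 and 0.02 ± 0.099, without a call. MBNL1-AS1, on the opposite strand, shares 1140 exon bases (11.4% of the MBNL1 length), and reads of both genes cannot be told apart if strand was not used in counting.

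MBNL2, its paralog in muscle and brain, moved the other way in the knockouts. In KO2 it read 71.6, 77.4 and 82.0 CPM against 90.2, 85.8 and 89.6 CPM in WT2 (−0.21 ± 0.052 SE, adjusted p = 0.00775). KO1 libraries were spread from 74.3 to 98.1 CPM and overlapped with WT1 (91.9 to 101.9 CPM), where the fold change was of like size but not called (−0.20 ± 0.089, adjusted p = 0.111). Without KO1 replicate 2, the library at 98.1 CPM, the value was −0.31 (adjusted p = 0.004).

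MBNL2 rose with both ANKRD10 variants. It read 68.0, 67.0 and 67.9 CPM in ANKRD10-1 cells (0.24 ± 0.047, adjusted p = 0.00413) and 80.0, 80.7 and 74.9 CPM in ANKRD10-2 cells (0.46 ± 0.052, adjusted p = 3.52e-05), against 56.9, 56.1 and 58.4 CPM in Vector. None of these groups overlapped, and ANKRD10-2 lay above ANKRD10-1 by 0.22 ± 0.053 (adjusted p = 0.0162), a call lost without ANKRD10-1 replicate 1 or 2 or ANKRD10-2 replicate 2 (adjusted p between 0.0589 and 0.0777). Neither siRNA changed MBNL2 by a called amount (0.16 ± 0.083 and −0.08 ± 0.079). The siRNAs differed by −0.23 ± 0.084 (adjusted p = 0.0383), with overlap between the groups, a call lost without siANKRD10-1 replicate 1 or 2 or siANKRD10-2 replicate 1 or 2 (adjusted p from 0.0562 to 0.218), by DESeq2 (0.0583) and with a replicate block (0.0709).

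MBNL3, found mainly in placenta and in proliferating muscle precursors, was low. In the knockout table the control groups were split in the same way. WT1 read 4.03, 4.62 and 0.800 CPM (210, 249 and 54 reads) and WT2 read 3.66, 4.51 and 0.792 CPM (246, 251 and 56 reads), so replicate 3 of each group lay far below the others. KO1 read 1.28, 1.44 and 1.66 CPM and KO2 1.61, 2.19 and 1.56 CPM, between the levels of the control libraries. With all libraries the fold changes were −1.11 (95% CI −2.19 to −0.02, adjusted p = 0.105) in KO1 and −0.74 (95% CI −1.75 to 0.27, adjusted p = 0.24) in KO2.

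The call for MBNL3 by edgeR turned on those replicates. In KO1 it also depended on the tool, since DESeq2 called it with all libraries (−1.11, adjusted p = 0.0359). By edgeR, without WT1 replicate 3 the value in KO1 was −1.57 (adjusted p = 0.000926). Without WT2 replicate 3 that in KO2 was −1.20 (adjusted p = 0.00332). Against the 4 control libraries numbered 1 and 2, a comparison added after the data were seen, they were −1.53 (adjusted p = 5.38e-05) and −1.24 (adjusted p = 0.000297). Among 14065 genes that averaged 1 CPM or more in the control libraries, 2 were lower in both libraries numbered 3 than in the other 4 by a log2 gap of at least 1, H3-7 (3.13) and MBNL3 (2.19), and 1, UTP14C, was higher by such a gap (1.70). These genes were named after their values were seen, and the reason for the split was not tested. In the other tables MBNL3 had 2 to 29 reads per library, and its fold changes of −0.59 and −0.22 in the overexpression table had intervals of −1.38 to 0.21 and −0.97 to 0.54.

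**Figure D4:**
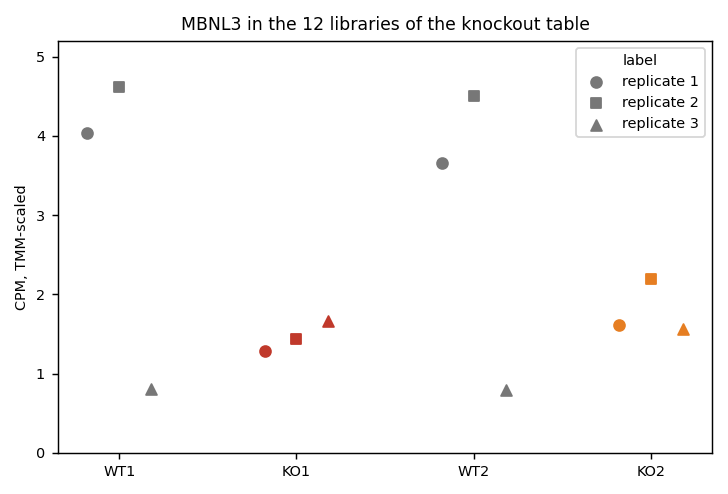
MBNL3 level (CPM, TMM-scaled) in the 12 libraries of the knockout table, with symbols for the replicate number in the label. The libraries numbered 3 of WT1 and WT2 lie at 0.800 and 0.792 CPM, below the knockout libraries, while the other 4 control libraries lie at 3.66 to 4.62 CPM, above them.

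Of the PTBP genes, PTBP1, the form of most non-neuronal cells, rose slightly in KO2, to 676, 698 and 713 CPM from 655, 654 and 630 CPM in WT2 (0.10 ± 0.030 SE, adjusted p = 0.0195). The call was lost without WT2 replicate 3 or without KO2 replicate 2 or 3 (adjusted p between 0.0708 and 0.0817). In KO1 it read 598, 556 and 583 CPM against 638, 643 and 592 CPM in WT1, with overlap (−0.11 ± 0.048, adjusted p = 0.102). With all libraries of the table in 1 fit the calls were the other way round, with PTBP1 called in KO1 (−0.11, adjusted p = 0.0445) and not in KO2 (0.11, adjusted p = 0.0517), and against all 6 control libraries it was called in KO1 as well (−0.13, adjusted p = 0.0155). PTBP1 fell with siANKRD10-2 to 82.8, 80.3 and 90.9 CPM from 103.3, 100.6 and 99.05 CPM in siNC (−0.25 ± 0.057, adjusted p = 0.000923). With siANKRD10-1 its libraries (98.4, 87.7 and 97.1 CPM) lay just below siNC and were not called (−0.10 ± 0.059, adjusted p = 0.332), nor was PTBP1 called in ANKRD10-1 (0.05 ± 0.056) or ANKRD10-2 cells (0.16 ± 0.056, adjusted p = 0.0603). The latter was called with a replicate block (adjusted p = 0.0312) and without ANKRD10-2 replicate 2 (0.0495).

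PTBP2, the neuronal form, was not called by edgeR in any comparison as fitted here. Its values in the knockout table were 38.9, 46.0 and 37.9 CPM in KO1 beside 39.9, 38.9 and 45.1 CPM in WT1, and 37.5, 33.2 and 37.6 CPM in KO2 beside 39.8, 38.0 and 35.5 CPM in WT2. The largest fall was with siANKRD10-1, to 13.9, 13.3 and 14.4 CPM from 17.0, 15.8 and 17.0 CPM in siNC, where the groups did not overlap but the test narrowly missed the threshold (−0.25 ± 0.082, adjusted p = 0.0532). It passed with RLE size factors (adjusted p = 0.0491), a replicate block (0.0377) and all libraries of the table in 1 fit (0.0433). Of the 4 neuronal markers, RBFOX3 was under 1 CPM in every library of the knockout and knockdown tables. TUBB3 averaged 35.3 CPM in WT1 and 23.4 CPM in siNC. By edgeR it fell in KO1 (−0.415 ± 0.074) and rose in KO2 (1.299 ± 0.056), ANKRD10-2 (0.328 ± 0.094) and siANKRD10-2 cells (0.335 ± 0.069). At low levels, SYT1 was called higher with siANKRD10-2 (0.781 against 0.342 CPM). RBFOX3 was called higher in ANKRD10-1 and ANKRD10-2 cells (1.34 and 1.38 against 0.598 CPM). SNAP25 was not called in any comparison with a control. Its log2 fold changes were 0.090 in KO1, 1.321 in KO2, −0.291 in ANKRD10-1, −0.474 in ANKRD10-2, −0.098 with siANKRD10-1 and −0.420 with siANKRD10-2. Of neuronal markers tested, 1 of 3 was called in each knockout and 1 of 4 in ANKRD10-1 cells. Called were 2 of 4 in ANKRD10-2 cells, 0 of 4 with siANKRD10-1 and 2 of 4 with siANKRD10-2. Over all genes the shares were 36.1%, 38.5%, 6.31%, 19.9%, 10.6% and 36.3%.

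PTBP3, a paralog best known from blood cells, gave the largest called change of the 10 regulators in the knockout table. It read 241, 246 and 259 CPM in KO2 against 355, 350 and 363 CPM in WT2, and so fell by 30.5% without overlap (−0.52 ± 0.035 SE, adjusted p = 2.72e-07). KO1 read 383, 407 and 369 CPM beside 368, 391 and 398 CPM in WT1 (0.00, 95% CI −0.11 to 0.11, adjusted p = 0.998). In the other 4 comparisons its log2 fold changes were 0.03, 0.15, −0.04 and 0.11, none called. The second of these, in ANKRD10-2 cells, was called with a replicate block (adjusted p = 0.0352), with all libraries of the table in 1 fit (0.0478) and without ANKRD10-2 replicate 1 (0.044).

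Where the knockouts were set against each other, 3 of 10 regulators had effects that differed, beside 23.3% of all genes. The KO1 effect minus the KO2 effect was 0.52 ± 0.062 SE for PTBP3 (adjusted p = 1.29e-05), −0.28 ± 0.056 for RBFOX2 (adjusted p = 0.0015) and −0.21 ± 0.057 for PTBP1 (adjusted p = 0.0114). PTBP3 fell in KO2 alone, RBFOX2 fell in both and more in KO1, and PTBP1 had opposite signs in both lines, with the call in one or the other according to the fit. RBPMS itself was lower by 1.44 in KO1 and by 1.09 in KO2 on the log2 scale, a difference that was also called (−0.36 ± 0.087, adjusted p = 0.00672). The sgRNA and the clone cannot be told apart.

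**Figure D5:**
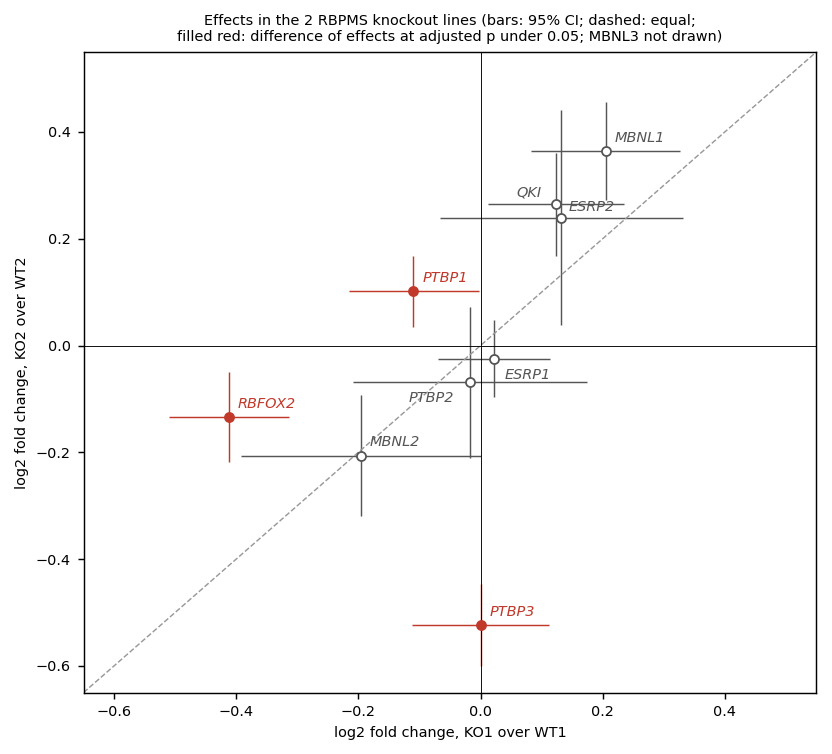
Log2 fold change of 9 regulators in KO1 (x axis) and KO2 (y axis) against their own controls, with 95% confidence intervals, a dashed line of equal effects and filled red points where the difference of effects was called. PTBP3 (0.00 and −0.52), RBFOX2 (−0.41 and −0.13) and PTBP1 (−0.11 and 0.10) lie off the line.

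Beside the 10 genes, 29 other tissue-type splicing regulators (CELF, NOVA, MSI, RBM, TIA, ELAVL and KHDRBS genes among them) were looked at. In KO1, 9 of 18 tested were called (3 higher, 6 lower), and in KO2 7 of 18 (4 higher, 3 lower). Called were 2 of 23 in ANKRD10-1 cells, 7 of 23 in ANKRD10-2 cells, 2 of 18 with siANKRD10-1 and 8 of 19 with siANKRD10-2. These are 50%, 38.9%, 8.7%, 30.4%, 11.1% and 42.1% of the genes tested. Over all genes the shares were 36.1%, 38.5%, 6.31%, 19.9%, 10.6% and 36.3%. Those in KO2, in ANKRD10-1 cells and with either siRNA lay near them. RBPMS belongs to this list and was the target. TIA1, which promotes exons with U-rich 5′ splice sites, fell in KO1 (−0.51 ± 0.065), KO2 (−0.14 ± 0.038), ANKRD10-1 (−0.23 ± 0.064) and ANKRD10-2 cells (−0.47 ± 0.063), with adjusted p-values from 0.000124 to 0.0446, and rose with siANKRD10-2 (0.22 ± 0.059). Its paralog TIAL1 rose in KO1 (0.24 ± 0.049), KO2 (0.16 ± 0.041) and ANKRD10-2 cells (0.20 ± 0.067) and fell with siANKRD10-2 (−0.50 ± 0.068). MSI1, a stem cell regulator, rose in both knockouts (0.28 ± 0.058 and 0.35 ± 0.064). RBM20, the titin splicing factor of heart, rose with siANKRD10-1 (0.47 ± 0.103) and siANKRD10-2 (0.88 ± 0.106), and SRRM3, which acts on neuronal microexons, fell in KO1 (−0.82 ± 0.108). The others that led the called genes were RBM47 (0.30) in KO1, CELF1 (0.22) and ELAVL2 (−0.45) in KO2, KHDRBS3 (0.87), RBM38 (0.44), CELF1 (0.22) and RBM47 (−0.20) in ANKRD10-2 cells, RBM24 (1.04) with siANKRD10-1, and ELAVL2 (0.64), MSI2 (0.27) and KHDRBS1 (−0.17) with siANKRD10-2.

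A list of 20 genes whose exons are textbook targets of these regulators was measured for its total counts, which do not show exon use. Called were 11 of 18 in KO1 (5 higher, 6 lower), 13 of 18 in KO2 (9 higher, 4 lower), 1 of 18 in ANKRD10-1, 6 of 18 in ANKRD10-2 cells, 5 of 19 with siANKRD10-1 and 12 of 19 with siANKRD10-2. These are 61.1%, 72.2%, 5.56%, 33.3%, 26.3% and 63.2% of the genes tested, beside 36.1%, 38.5%, 6.31%, 19.9%, 10.6% and 36.3% of all genes. CD44, an ESRP target on the cell surface, rose in KO1 (0.46 ± 0.041), KO2 (0.60 ± 0.033) and ANKRD10-2 cells (0.19 ± 0.044) and fell with siANKRD10-1 (−0.62 ± 0.054) and siANKRD10-2 (−0.46 ± 0.055). FGFR2, whose epithelial exon depends on ESRP proteins, fell in KO2 (−1.11 ± 0.056) and with siANKRD10-1 (−0.31 ± 0.092), and the insulin receptor gene INSR, an MBNL target, fell in KO1 (−0.66 ± 0.073) and KO2 (−0.38 ± 0.061). DLG4, a postsynaptic gene whose exon PTBP proteins repress, rose in KO2 (1.25 ± 0.158) and with siANKRD10-2 (0.38 ± 0.104). Others that led were PKM (0.36), MAPT (−1.85) and TPM1 (−0.57) in KO1, ACTN1 (0.59) and SLK (−0.28) in KO2, ACTN1 (0.20) in ANKRD10-1, ACTN1 (0.16), ARHGEF11 (−0.28), MACF1 (−0.27) and SLK (−0.17) in ANKRD10-2 cells, TPM1 (0.23) and SLK (−0.57) with siANKRD10-1, and GABBR1 (0.73), ENAH (0.28) and CTNND1 (−0.31) with siANKRD10-2.

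Transcription regulators of the epithelial and mesenchymal states, which act on ESRP genes among others, were taken as a list of 14 that also held the microRNA host genes MIR200CHG and MIR205HG. Called were 5 of 12 in KO1 (3 higher, 2 lower), 6 of 12 in KO2 (2 higher, 4 lower), 2 of 11 in ANKRD10-1 cells, 5 of 11 in ANKRD10-2 cells, 2 of 11 with siANKRD10-1 and 4 of 11 with siANKRD10-2, the last all lower. These are 41.7%, 50%, 18.2%, 45.5%, 18.2% and 36.4% of the genes tested, beside 36.1%, 38.5%, 6.31%, 19.9%, 10.6% and 36.3% of all genes, so the shares in KO1 and with siANKRD10-2 lay near those of all genes. ZEB2, a repressor of epithelial genes, rose in KO1 (0.55 ± 0.136) and KO2 (0.71 ± 0.171) and fell in ANKRD10-1 cells (−0.35 ± 0.073). ELF3, an epithelial factor, rose in KO1 (0.52 ± 0.054) and fell in KO2 (−0.58 ± 0.039) and with siANKRD10-2 (−0.85 ± 0.059). SNAI2, a repressor of E-cadherin, rose in KO1 (0.55 ± 0.065), ANKRD10-1 (0.36 ± 0.050) and ANKRD10-2 cells (0.85 ± 0.048) and fell with siANKRD10-2 (−0.43 ± 0.069). OVOL1 rose in KO2 (1.20 ± 0.203) and ANKRD10-2 cells (1.04 ± 0.150), MIR205HG fell in KO2 (−0.38 ± 0.076) and with siANKRD10-1 (−0.39 ± 0.062) and siANKRD10-2 (−0.57 ± 0.058), and OVOL2 (−0.51) and GRHL2 (−0.27) in KO1, GRHL1 (−0.60) in KO2, and TWIST1 (0.42) and GRHL1 (−0.20) in ANKRD10-2 cells completed the leading genes.

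As a description over all 30 libraries, each value was taken as log2 CPM minus the mean of its own table, and the genes with the most similar pattern among 11666 genes were listed. The points share tables, depth and control groups, so no test is given. RBFOX2 was most like FNBP1L (Pearson's r = 0.93), EXOC6B (0.91) and PLCXD2 (0.90), and PTBP3 most like ZNF83 (0.89), PABPC4L (0.89) and TOPORS (0.88). PTBP1 was nearest to KHSRP (0.87), JUP (0.83) and PKNOX1 (0.83), ESRP1 to RYBP (0.86), ITGA6 (0.85) and EPS8 (0.83), and ESRP2 to DHCR7 (0.84), TPRG1L (0.81) and YTHDF1 (0.81). For MBNL1 the nearest were LINC00641 (0.84), DHX9 (0.82) and NUP50 (0.81), for MBNL2 PAWR (0.75), CCNH (0.75) and MTF2 (0.74), for QKI MAN2A1 (0.81), ASPH (0.78) and PTPRM (0.77), and for PTBP2 PCGF5 (0.72), CBX3 (0.70) and FANCB (0.70). MBNL3 was below 1 CPM in 2 tables and was not compared.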

How the data were processed

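The authors deposited raw read counts per gene, without normalization, in 3 tables. The submitters' processing notes list Trimmomatic 0.36, featureCounts of Subread 1.5.1 and GRCh38, while the paper's methods name StringTie for expression levels. The strand setting is not given in the sources used here. The 10 genes and all lists were chosen with earlier results of these data known.

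Groups follow the labels. In each comparison only its own libraries were fitted (all 12 knockout-table libraries for the difference of the knockouts). Genes were kept by filterByExpr (minimum count 10, minimum total 15), scaled by TMM and tested with edgeR 4.0.16 (R 4.3.3, limma 3.58.1) by its quasi-likelihood test and Benjamini-Hochberg adjustment across every gene in the fit, called at an adjusted p under 0.05. The prior count was 0.125. No 2 libraries of the same group agreed within sampling noise. Libraries of different groups were not compared in this way. An exact permutation test of 3 against 3 cannot give a p below 0.1. The fits were also run on simulated counts drawn independently for each library. Such counts lack any structure between libraries, so nothing about these data is concluded from them.

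Named genes were the 10 regulators, RBPMS and ANKRD10, from each list at most the 3 largest called rises and 3 largest called falls per comparison with a control among genes of at least 1 CPM on average, and the 3 most similar genes over the libraries (log2 CPM with a prior count of 2). Marker lists were epithelial, urothelial, mesenchymal, muscle, neuronal, and endothelial and immune. DES, CNN1 and MYOD1 of the 4 muscle markers and CDH5, PTPRC and CD3E of the 4 endothelial and immune markers were under 1 CPM in every library. By edgeR the muscle marker MYH11 fell with siANKRD10-2, from a mean of 7.80 to 3.65 CPM (−1.088 ± 0.133). PECAM1 rose in KO1 (1.438 ± 0.302) and KO2 (1.458 ± 0.458) and fell with siANKRD10-2 (−0.930 ± 0.290), at means of 0.486 to 1.65 CPM. Alternatives were DESeq2 1.42.0, RLE size factors, no filter, a replicate block, all libraries of a table in 1 fit, all 6 control libraries, a fold threshold (absolute log2 of at least 1), levels per plain library total, and leaving out each library. A gene that the rule for named genes picked is counted in its list but is not reported here by name.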

Additional observations from a re-analysis of the deposited data

Results flagged for a closer look

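The effects of both RBPMS knockouts differed for 3 of 10 regulators by edgeR's test of KO1 against WT1 minus KO2 against WT2. Of all 19189 genes in that test, 23.3% were called. The difference on the log2 scale was 0.52 for PTBP3, −0.28 for RBFOX2 and −0.21 for PTBP1. The cause was not tested, since sgRNA and clone cannot be told apart. Apart from the check of the control libraries numbered 3 and the fits that left out 1 library, groups of 3 libraries were not searched for single libraries far from the others.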

How the results depend on the processing

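RLE size factors and DESeq2 left the number of regulators called within 1.5 times of the value given in all 10 comparisons, as did no filter on low counts. With a change by 1 or more on the log2 scale as an added condition the number was 0 in every comparison. All 6 control libraries gave 4 calls in KO1 in place of 2. Leaving out 1 library gave 1 to 3 calls in KO1, 4 to 6 in KO2, 2 to 5 in ANKRD10-2 cells, 0 to 5 between the ANKRD10 variants, 3 to 4 with siANKRD10-2 and 3 to 6 between the siRNAs. The calls between the variants went to 0 without ANKRD10-2 replicate 2 and to 1 without ANKRD10-1 replicate 1, 2 or 3 or ANKRD10-2 replicate 3, and those in KO1 to 1 without WT1 replicate 1 or 2. Those in ANKRD10-2 cells went to 5 without ANKRD10-2 replicate 1, and those between the siRNAs to 3 without siANKRD10-1 replicate 1 or siANKRD10-2 replicate 2. The cause was not tested.

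Over all genes, the deviations of same-numbered libraries had correlations from −0.035 to 0.084, none above 0.1, and the labels tie no number to a culture or day, so no pairing was taken. In KO2 with WT2 and in ANKRD10-2 with Vector every library correlated best with its own number, a hint from the data and not from the design, and the libraries of WT1 and WT2 numbered 3 were alike for MBNL3. A replicate block gave 6 calls in ANKRD10-2 cells in place of 3 (QKI, PTBP1 and PTBP3 gained) and 3 between the siRNAs in place of 5 (QKI and MBNL2 lost), and it left the other counts within 1.5 times. Other single calls changed too. With no filter, PTBP1 in KO2 (adjusted p = 0.101), RBFOX2 in ANKRD10-2 cells (0.0683) and ESRP1 between the variants (0.0554) were lost. With all libraries of a table in 1 fit, PTBP1 (0.0517) and MBNL2 (0.0641) in KO2 were lost, and ESRP2 in KO2, PTBP1 in KO1 and between the siRNAs (0.0439), PTBP2 with siANKRD10-1 and PTBP3 in ANKRD10-2 cells were gained. DESeq2 gained MBNL3 in KO1 (0.0359), ESRP2 in KO2 and QKI in ANKRD10-2 cells and lost MBNL2 between the siRNAs. All 6 control libraries gained QKI and PTBP1 in KO1 and ESRP2 in KO2, and RLE size factors and the block gained PTBP2 with siANKRD10-1. Calls gained by leaving out 1 library and not given above were MBNL1 between the knockouts (0.0388) and between the variants (0.04), and PTBP1 (0.00698 and 0.0243) and PTBP3 (0.00832) between the siRNAs.

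The values that changed sign were all uncalled, and with all libraries they lay between −0.069 and 0.049 on the log2 scale, apart from MBNL3 (−0.367 for the difference of the knockouts and −0.073 for WT2 against WT1). PTBP3 in KO1, 0.00, was −0.002 with RLE size factors and with DESeq2, −0.004 with no filter, −0.000 with the replicate block, and −0.037 to 0.033 leaving out 1 library. PTBP2 in KO1 was 0.049 with all 6 control libraries and −0.11 to 0.053 leaving out 1 library. Leaving out 1 library also gave, for the difference of the knockouts, −0.11 to 0.098 (MBNL2), −0.83 to 0.089 (MBNL3) and −0.041 to 0.12 (PTBP2). For WT2 against WT1 it gave −0.028 to 0.025 (RBFOX2) and −0.54 to 0.38 (MBNL3). In the overexpression table it gave −0.000 to 0.067 for PTBP3 in ANKRD10-1 cells and −0.047 to 0.14 for MBNL1 in ANKRD10-2 cells, and between the variants −0.11 to 0.009 (ESRP2) and −0.020 to 0.046 (PTBP2). In the knockdown table it gave −0.12 to 0.011 for PTBP3 with siANKRD10-1 and −0.078 to 0.004 for MBNL1 between the siRNAs. At 2 to 29 reads per library, MBNL3 in the overexpression and knockdown tables allows no statement on a change.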
